A study of Mus musculus with 4 samples.

Results

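The genes that hold or release the brake on the cell cycle were read in differentiating C2C12 cells with and without interferon-γ (IFN-γ). They comprised the CDK inhibitors Cdkn1a, Cdkn1b and Cdkn1c, the pocket protein Rb1, the D-type cyclins Ccnd1, Ccnd2 and Ccnd3, the kinases Cdk4 and Cdk6, and Myc. Every probe whose transcript accession maps to 1 of these symbols was kept, whatever its value, which gave 14 probes for 10 genes of the 39429 probes and 19751 named genes on the array. All 14 probes were bright enough to be tested, as were 28921 probes and 15673 named genes in all. A probe was tested where it stood well above background in the same dye on at least 3 of the 4 arrays. Cdk6 met this through the treated channel alone: its probe was above background in the control channel on 2 arrays and in the treated channel on 4.

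C2C12 is an established mouse myoblast line that stops dividing and fuses into myotubes when serum is lowered, and by the labels the cells had been split at most 7 times. Both groups were cells at day 3 of differentiation, begun at about 80% confluence, and 1 group was given IFN-γ (1 ng/ml) while the other had none. The source names of both groups also carry 24 h, and what this time refers to is not stated. The labels disagree on the horse serum of the medium, 2% in one place and 10% in another. Each of 4 arrays of 2 colours held treated RNA in Cy5 and untreated control RNA in Cy3, labelled from 8 µg of total RNA. The dyes were never exchanged, so an effect of the treatment and one of the dye cannot be told apart in the values below. The treated samples are labelled biological replicates 1 to 4, nothing says whether the controls were separate cultures, and p-values therefore measure how these arrays differ among themselves, which may be partly technical. All arrays lay on 1 slide, so no slide effect could be estimated.

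Cells leave the cycle when CDK inhibitors of the Cip/Kip family (p21 from Cdkn1a, p27 from Cdkn1b, p57 from Cdkn1c) block cyclin-dependent kinases. D-type cyclins with CDK4 or CDK6 otherwise phosphorylate the retinoblastoma protein, which then releases E2F factors and lets S phase genes be transcribed. In skeletal muscle, p21 and p57 are known for the permanent arrest of differentiating myoblasts, cyclin D3 rises and is retained in myotubes, and cyclin D1 and Myc are known as brakes on the myogenic programme.

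Median spot intensity over all probes that are not controls lay between 79.8 and 97 in Cy3 and between 149.5 and 264 in Cy5, with 0 saturated spots. Replicate 2 stood apart from the rest: its median correlation with the other arrays over tested probes was 0.65, against 0.85 to 0.89 for replicates 1, 3 and 4. The interferon-induced gene Irf1 (log2 ratio 2.74 ± 0.20, SD, n = 4) was higher with treatment on all arrays, as the labels have it. Of 14 skeletal muscle markers, 13 were above background in the control channel on at least 3 arrays. The same held for 7 of 8 fibroblast markers, 5 of 7 macrophage and leukocyte markers on the array and 2 of 8 endothelial markers. The endothelial markers Cdh5, Tie1 and Emcn and the leukocyte marker Lyz2 were not above background on any array.

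With IFN-γ, the positive regulators Myc and Ccnd1 were higher. Ccnd2 and Cdkn1c were lower under an intensity-dependent normalisation (loess) and not under median centring, which called both higher when taken over all probes. The inhibitor Cdkn1b was called higher under median centring and not under loess. Cdk6 also read higher, but its probe entered the test through the treated channel, where it is high, so its call is given as a description. Values are log2 ratios of treated over control after loess within each array, given as mean ± SD over n = 4 arrays, and a probe is called at an adjusted p under 0.05 in limma, with Benjamini-Hochberg adjustment over all tested probes. Of the 14 probes, 3 were called higher, with Cdk6 among them, and 2 lower, beside 16.5% of all tested probes called higher and 12.6% called lower. By brightest probe this was 3 of 10 genes higher and 2 lower, beside 18.8% and 12.9% of all named genes. Adjustment over genes in place of probes gave 3 higher and 4 lower. The share of all named genes called under that adjustment is not given, and the shares above hold for adjustment over probes. A filter requiring both channels above background on all arrays removed Cdk6 and left 2 probes higher. Calls are thus frequent over the whole array, and the individual genes and the spread of their values carry more information than the count. Median centring of each array over all probes, in place of loess, moved the median of all tested probes from 0.01 to 0.54. It turned the sign of Cdkn1a, Cdkn1c, Rb1, Ccnd2, Ccnd3 and Cdk4, and changes under it are given relative to that median.

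**Figure D1:**
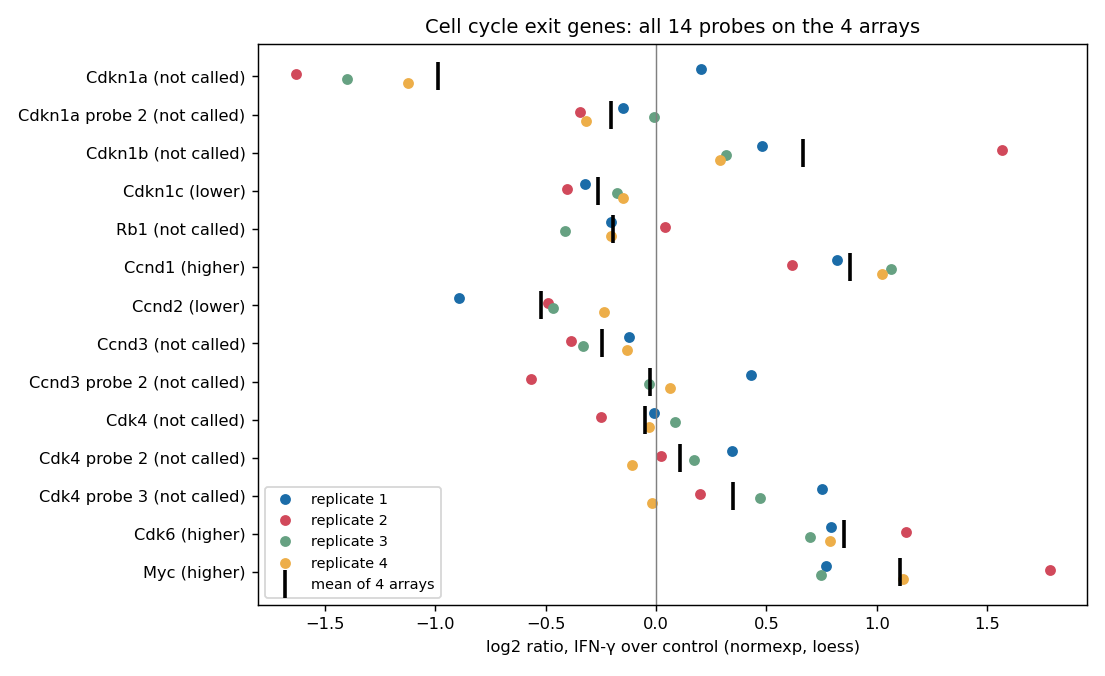
Log2 ratio of IFN-γ over control (x axis) for each of the 14 probes on the 4 arrays, with loess normalisation; points are arrays and vertical bars the means. Myc, Ccnd1, Cdk6 and the inhibitor Cdkn1b, which was not called, lie above 0 on all 4 arrays. Cdkn1a replicate 1 (0.20) lies apart from the others (−1.63 to −1.12). The means below 0 of Cdkn1a, Cdkn1c, Rb1, Ccnd2, Ccnd3 and Cdk4 change sign under median centring over all probes.

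Among the CDK inhibitors, Cdkn1a, which encodes p21, had the lowest mean of the 10 genes and was not called. Its brightest probe (A_51_P363947, transcript NM_007669) gave log2 ratios of 0.20, −1.63, −1.40 and −1.12 on replicates 1 to 4. Replicates 2, 3 and 4 were low and replicate 1 lay on the other side of 0. The mean was −0.99 ± 0.82 (95% confidence interval −1.72 to −0.25), a factor of 1.98 on the linear scale, with an adjusted p of 0.0551. Without replicate 1 the mean was −1.39 with an adjusted p of 0.00764. Adjusted over genes, with 1 probe each, the 4 arrays gave a p of 0.0435, so the call depends on how many features the adjustment covers. Under median centring over all probes the mean was 0.056, or −0.48 relative to the median of tested probes.

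The array carries this Cdkn1a probe on 10 spots, which shows the spot error within each array. On replicate 1 all 10 spots lay between 0.16 and 0.25. On replicate 2 they lay between −1.66 and −1.60, on replicate 3 between −1.44 and −1.37, and on replicate 4 between −1.17 and −1.09. The SD over spots of 1 array was 0.019 to 0.027, which measures technical error within a hybridisation alone. Whether replicate 1 departs through the culture, the labelling or the array was not tested. In normalised log2 signal, with average intensity equalised between arrays (Aquantile), the treated channel read 12.95 on replicate 1 and 11.93 to 12.13 on the others. The control channel read 12.74 on replicate 1 and 13.26 to 13.56 on the others. The channels overlapped across arrays.

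**Figure D2:**
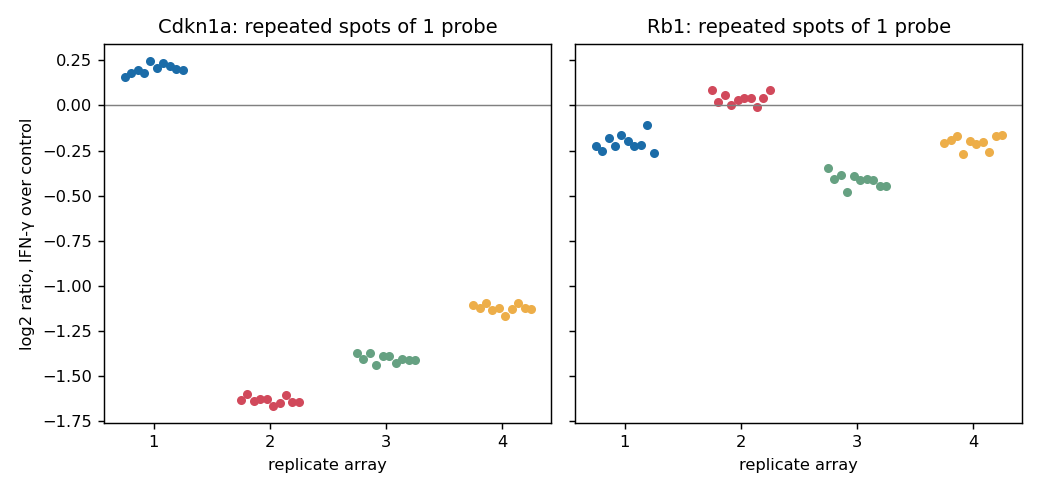
Log2 ratio (y axis) of each of the 10 spots of the Cdkn1a probe (left) and of the Rb1 probe (right), by replicate array (x axis). Spots of 1 array lie within a narrow band (SD 0.019 to 0.027 for Cdkn1a and 0.032 to 0.045 for Rb1), while the bands differ between arrays.

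A second Cdkn1a probe (A_55_P1986282, NM_001111099) was dim, with median Cy3 intensities of 73.5 to 96. It read −0.15, −0.34, −0.01 and −0.32 on replicates 1 to 4. All arrays lay below 0, with a mean of −0.21 ± 0.16 and an adjusted p of 0.104. Under median centring it was called lower over tested probes (−0.72, adjusted p 0.000453) and not over all probes (−0.22, 0.0789). In both it lay −0.75 from the median of tested probes. The bright probe minus this probe was −0.78 ± 0.80, with an exact sign-flip permutation p of 0.25, two-sided. Replicate 1 was the array on which the bright probe read above the dim probe, by 0.35. The mean of both probes was −0.60 with an adjusted p of 0.0318.

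The RefSeq promoter table holds 2 windows of 250 bases before an annotated Cdkn1a start, shown because the gene has 2 probes for different transcripts and because p21 is the best known target of p53. The table does not pair windows with probes. Capitals mark motif matches, found on either strand. The first window (GRCm38.p6, chr17:29090729-29090978, plus strand) holds 1 p53-type repeat, CATG, 6 bases and CATG again, starting 48 bases before the start. That repeat occurs in 0.49% of the 32851 windows of the table and was added to the search after these windows had been read. The second window (chr17:29093519-29093768, plus strand) holds 2 GGGCGG boxes of the Sp1 type, 104 and 46 bases before the start, a motif found in 32.7% of windows.
Cdkn1a window 1: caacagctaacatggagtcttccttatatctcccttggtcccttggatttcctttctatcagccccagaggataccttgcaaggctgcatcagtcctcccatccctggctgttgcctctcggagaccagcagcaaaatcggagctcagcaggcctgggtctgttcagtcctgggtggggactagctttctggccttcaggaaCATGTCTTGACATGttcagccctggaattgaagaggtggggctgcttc
Cdkn1a window 2: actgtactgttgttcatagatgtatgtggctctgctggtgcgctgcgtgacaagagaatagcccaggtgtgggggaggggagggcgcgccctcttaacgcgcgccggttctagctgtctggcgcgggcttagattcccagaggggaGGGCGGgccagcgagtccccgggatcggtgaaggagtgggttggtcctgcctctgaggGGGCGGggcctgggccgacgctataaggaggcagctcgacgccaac

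Neither window holds the interferon motifs TTCNNNGAA (the gamma-activated site, in 7.02% of all windows) or GAAANNGAAA (the core of the interferon-stimulated response element, 2.98%) in these 250 bases. The same was true of the windows of Cdkn1b, Ccnd3, Cdk4 and Cdk6, the other genes of the set that the table lists (7 windows for 5 genes). The myogenic E-box CAGCTG (13% of windows) and the E2F motif TTTCCCGC (0.895%) were found in none of the 7 windows.

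Cdkn1b, which encodes p27, had a mean on the other side of 0. Its probe (A_55_P2026562, NM_009875) gave 0.48, 1.57, 0.32 and 0.29 on replicates 1 to 4. All arrays were above 0 and replicate 2 stood far above the others. The mean was 0.66 ± 0.61 (95% confidence interval 0.11 to 1.22), with an adjusted p of 0.0748, so Cdkn1b was not called. Without replicate 2 the mean was smaller, 0.36, and passed with an adjusted p of 0.00683. The control channel spanned 11.20 to 11.85 in normalised log2 signal and the treated channel 11.52 to 13.04, the highest being replicate 2. Both median centrings called Cdkn1b higher, with 1.70 over all probes (adjusted p 5.3e-05) and 1.19 over tested probes (0.000882), in both 1.16 above the median of tested probes.

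Cdkn1c, which encodes p57, read −0.32, −0.40, −0.18 and −0.15 on replicates 1 to 4 (A_51_P339540, NM_009876). All arrays were below 0 and close together. The mean of −0.26 ± 0.12, a 1.20-fold lower level, was called with an adjusted p of 0.0379. That call ended without replicate 1 (adjusted p 0.129), without replicate 3 (0.105), without replicate 4 (0.0875) and in the methods' t-test (0.180). Its sign turned under both median centrings, to 0.57 over all probes and 0.063 over tested probes, each 0.034 above the median of tested probes. Over all probes it was thus called higher (adjusted p 0.00134), and over tested probes it was not called (0.579).

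The means of the 3 inhibitors lay on both sides of 0 under loess. Cdkn1a minus Cdkn1b was below 0 on all 4 arrays, −0.28, −3.20, −1.72 and −1.41, with a mean of −1.65 ± 1.20. A constant added to an array cancels in this difference, and it was −1.65 in the Feature Extraction ratio, −1.64 under either median centring and −1.26 with the mean of each gene's probes. With 1 array left out it lay between −2.11 and −1.14. Cdkn1b minus Cdkn1c was above 0 on all arrays, with a mean of 0.93 ± 0.71. Cdkn1a minus Cdkn1c was 0.52 on replicate 1 and −1.23 to −0.97 on the others, with a mean of −0.73 ± 0.84. The exact sign-flip permutation test (two-sided) gave p = 0.125, the smallest that 4 arrays allow, for Cdkn1a minus Cdkn1b and Cdkn1b minus Cdkn1c. For Cdkn1a minus Cdkn1c it gave 0.25. Adjusted by Benjamini-Hochberg over 7 differences among related genes, these values were 0.146 and 0.25. This test cannot reach 0.05 with 4 arrays. The 7 include Cdk6 minus Cdk4, which is given as a description, since Cdk6 entered through the treated channel.

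Rb1, the pocket protein that the D cyclin kinases inactivate, was not called under loess. Its probe (A_51_P136888, NM_009029) read −0.21, 0.04, −0.41 and −0.20 on replicates 1 to 4. Replicate 2 lay at 0.04 and the others below 0. The mean was −0.20 ± 0.19 with an adjusted p of 0.142, and without replicate 2 it was −0.27 with an adjusted p of 0.0230. This probe too had 10 spots, with SDs over spots of 0.032 to 0.045. On replicate 2, 1 of 10 spots lay below 0, and on each of the other arrays all 10 did. Under median centring Rb1 was called higher, with 0.83 over all probes (adjusted p 8.91e-05) and 0.32 over tested probes (0.0208). In both it lay 0.29 above the median of tested probes.

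Among the D-type cyclins, under loess, Ccnd1 was called higher, Ccnd2 lower, and Ccnd3 was not called. Median centring over all probes called Ccnd2 higher (0.50), and both median centrings called Ccnd3 higher. Ccnd1, the cyclin that mitogens induce and that is known to oppose MyoD, was higher on every array, with log2 ratios of 0.82, 0.61, 1.06 and 1.02 on replicates 1 to 4 (A_66_P111562, NM_007631). In normalised log2 signal the treated channel (11.46 to 12.17) lay wholly above the control channel (10.84 to 11.15). The mean was 0.88 ± 0.21 (95% confidence interval 0.65 to 1.11), a 1.84-fold higher level with an adjusted p of 0.00288. It lay at percentile 98.2 of the means of all tested probes. Ccnd1 was called higher under all 14 alternatives run, with means of 0.82 to 1.92.

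Ccnd2, a D cyclin that myoblasts also express, read −0.89, −0.49, −0.46 and −0.24 on replicates 1 to 4 (A_52_P53906, NM_009829). All arrays were below 0, replicate 1 furthest, and the treated channel (10.36 to 10.85) lay wholly below the control channel (10.99 to 11.26). The mean of −0.52 ± 0.27 (95% confidence interval −0.80 to −0.25) was a 1.43-fold lower level with an adjusted p of 0.0202. Without replicate 3 the adjusted p was 0.0832. The lower level held under loess and in the Feature Extraction ratio (−0.65) and not under median centring. There the mean was 0.50 over all probes, called higher (adjusted p 0.00973), and −0.01 over tested probes. Each lay −0.04 from the median of tested probes.

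Ccnd3, the D cyclin retained in myotubes, had the brightest probe of the set (A_55_P2041075, NM_001081636). It read −0.12, −0.38, −0.33 and −0.13 on replicates 1 to 4. All arrays were below 0 and the 2 channels did not overlap, the treated one spanning 15.00 to 15.13 and the control one 15.23 to 15.39. The mean was −0.24 ± 0.14 with an adjusted p of 0.0555 over probes and 0.0491 over genes. Loess without background correction (adjusted p 0.0462) and the methods' t-test (0.0214) called it lower. The sign turned under median centring, which called it higher over all probes (0.82, adjusted p 0.000264) and over tested probes (0.32, 0.0264). A second probe (A_51_P238448, NM_007632) gave 0.43, −0.57, −0.03 and 0.06, a mean of −0.03 ± 0.41 and an adjusted p of 0.917. The probes lay on different sides of 0 on replicates 1 and 4.

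Differences within arrays, which do not move with the centring of an array, were above 0 on all 4 arrays for Ccnd1 against both other D cyclins. Ccnd1 minus Ccnd2 was 1.71, 1.10, 1.53 and 1.26 on replicates 1 to 4, with a mean of 1.40 ± 0.27. It was 1.57 in the Feature Extraction ratio, 1.42 under either median centring and 1.37 without background correction, and 1.30 to 1.50 with 1 array left out. Ccnd1 minus Ccnd3 was 0.94, 1.00, 1.40 and 1.15, with a mean of 1.12 ± 0.20. Ccnd2 minus Ccnd3 was −0.77 on replicate 1 and −0.13 to −0.10 on the others, with a mean of −0.28 ± 0.33, and without replicate 1 the mean was −0.11. Each of the 3 differences had the smallest p that the exact permutation test allows here, 0.125.

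**Figure D3:**
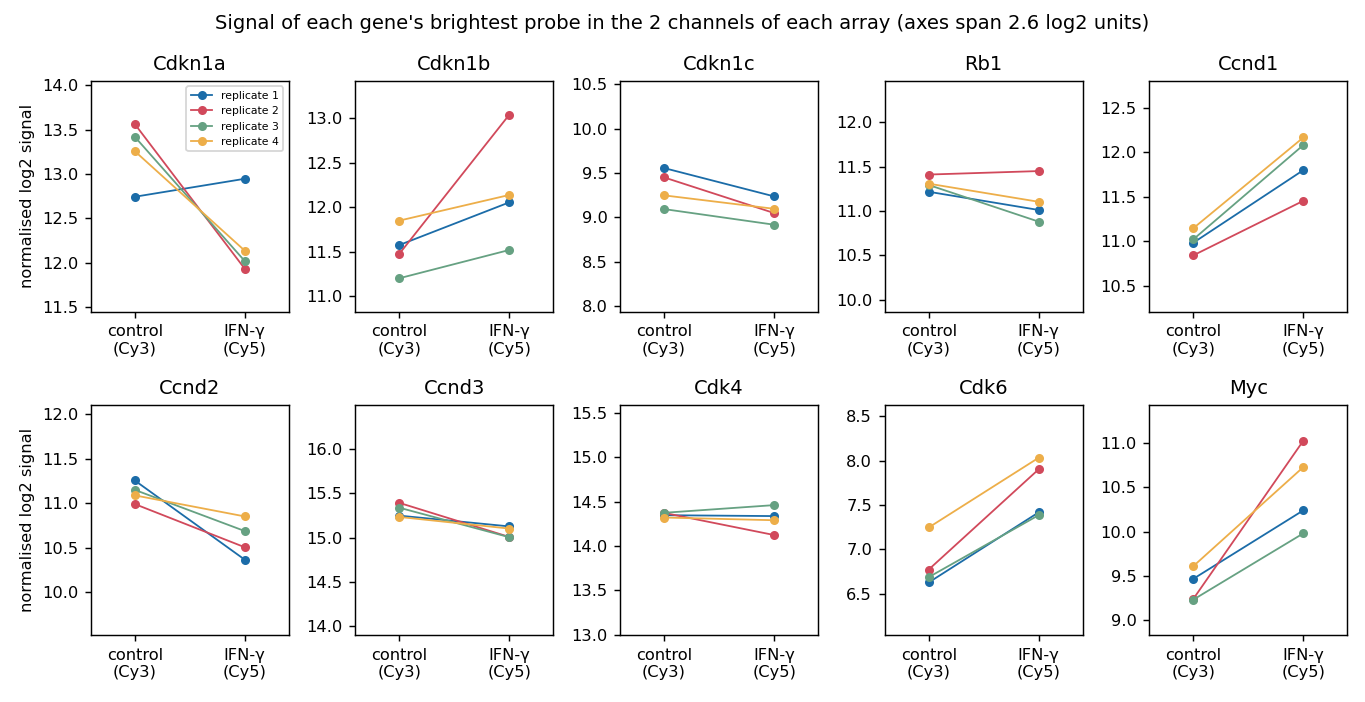
Normalised log2 signal (y axis) of each gene's brightest probe in the control channel (Cy3) and the treated channel (Cy5), with 1 line per array and every axis spanning 2.6 log2 units. The channels do not overlap for Ccnd1, Ccnd2, Ccnd3, Cdk6 and Myc, and the Cdkn1a lines of replicates 2 to 4 run opposite to that of replicate 1; levels of different genes are not comparable.

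Of the kinases that pair with D cyclins, Cdk4 had 3 probes to the same transcript (NM_009870), none called. The brightest (A_55_P2163143) read −0.01, −0.25, 0.09 and −0.03 on replicates 1 to 4, with a mean of −0.05 ± 0.14 (95% confidence interval −0.24 to 0.13) and an adjusted p of 0.649. The second (A_55_P1998188) read 0.35, 0.02, 0.17 and −0.11, with a mean of 0.11 ± 0.20. The third (A_55_P2166639) read 0.75, 0.20, 0.47 and −0.02, with a mean of 0.35 ± 0.33 and an adjusted p of 0.0971. The probes thus spread over 0.40 log2 units for 1 transcript. The brightest minus the third was below 0 on all 4 arrays, −0.40 ± 0.31, with an exact permutation p of 0.125. Under both median centrings all 3 probes were called higher, the brightest with 1.01 over all probes, or 0.47 relative to the median of tested probes.

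Cdk6, the other partner of the D cyclins and one known to hold back differentiation in several lineages, read higher in the treated channel on every array. Its probe (A_55_P2079630, NM_009873) gave 0.79, 1.13, 0.70 and 0.79 on replicates 1 to 4. All arrays were above 0, and the treated channel (7.39 to 8.03 in normalised log2 signal) lay above the control channel (6.63 to 7.25). The mean was 0.85 ± 0.19. As the control channel stood above background on 2 of 4 arrays, no fold or p is given for it. The probe was the dimmest called one of the set, with median intensities of 48 to 79 in Cy3 and 223 to 427 in Cy5. Its size varied with the processing: the ratio that Feature Extraction computed gave 2.11, loess without background correction 0.71, median centring over tested probes 0.43, and a filter requiring both channels above background removed the gene. Cdk6 minus Cdk4 was 0.90 ± 0.33 and above 0 on all arrays, but −0.069 under both median centrings.

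The promoter windows of the 2 kinases are shown because CACGTG, the E-box that Myc with Max binds, occurs in both, and Myc was called higher here. The window of Cdk4, a known Myc target, holds 4 such E-boxes, 172, 118, 98 and 11 bases before the start, and 1 Sp1-type box in the reverse orientation at 80. Of the 32851 windows 6.02% hold a CACGTG, and 7 windows (0.0213%) hold 4 or more, a limit equal to the count of the Cdk4 window itself. The windows of Cdkn1a, Cdkn1b and Ccnd3 hold no CACGTG. The window of Cdk6 holds 1 CACGTG at 220 and a TATAAA at 103, the latter a motif of 12.4% of windows. The Cdk4 window lies at GRCm38.p6 chr10:127063285-127063534 and the Cdk6 window at chr5:3343643-3343892, both on the plus strand. Capitals mark the matches.
Cdk4 window: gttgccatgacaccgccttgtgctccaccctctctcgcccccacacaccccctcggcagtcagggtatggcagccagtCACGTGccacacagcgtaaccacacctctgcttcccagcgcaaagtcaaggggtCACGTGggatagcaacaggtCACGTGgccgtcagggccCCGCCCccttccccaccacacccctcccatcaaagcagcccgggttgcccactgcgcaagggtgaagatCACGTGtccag
Cdk6 window: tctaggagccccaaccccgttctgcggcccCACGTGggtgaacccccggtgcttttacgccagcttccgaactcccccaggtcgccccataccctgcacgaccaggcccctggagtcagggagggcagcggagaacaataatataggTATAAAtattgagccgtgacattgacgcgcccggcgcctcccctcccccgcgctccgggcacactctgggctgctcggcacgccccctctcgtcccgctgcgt
A match of letters is a description of the window and no evidence of binding in these cells.

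Myc, the transcription factor that drives growth and cell cycle entry, had the highest mean of the 10 genes. Its probe (A_52_P108346, NM_010849) gave 0.77, 1.78, 0.75 and 1.12 on replicates 1 to 4. All arrays were above 0 with replicate 2 highest, and the treated channel (9.98 to 11.03) lay above the control channel (9.23 to 9.61). The mean of 1.11 ± 0.48 (95% confidence interval 0.66 to 1.55) was a 2.15-fold higher level with an adjusted p of 0.00926, at percentile 98.8 of all tested probes. Without replicate 2 the mean was 0.88 and still called. Without replicate 4 it was 1.10, with an adjusted p of 0.0532. It stayed above 0 under all 14 alternatives, between 0.88 and 2.05. Of the 14 probes, 1 passed the methods' t-test with a 2-fold change, and this was Myc. Of all 28921 tested probes, 411 passed it as higher and 241 as lower.

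**Figure D4:**
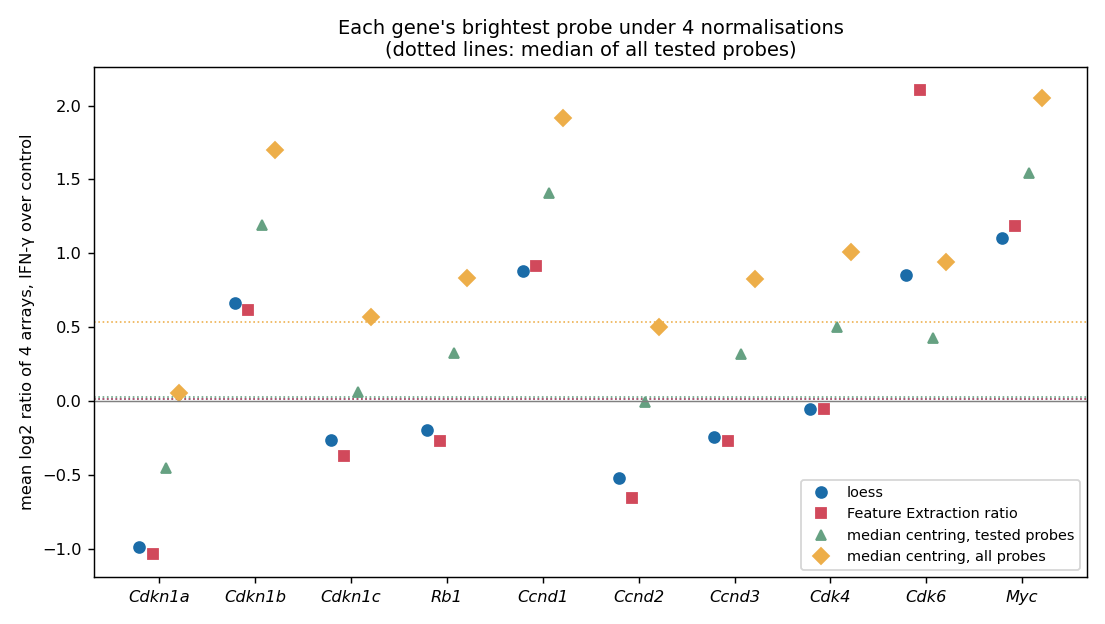
Mean log2 ratio over 4 arrays (y axis) of each gene's brightest probe (x axis) under loess, the Feature Extraction ratio and median centring over tested or all probes; dotted lines give the median of all tested probes under each. Myc, Ccnd1, Cdkn1b and Cdk6 lie above 0 under all 4, while Cdkn1a, Cdkn1c, Rb1, Ccnd2, Ccnd3 and Cdk4 change sign under median centring over all probes.

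The other genes of the pathway were read from 8 lists, with 1 brightest tested probe per gene. They are described by counts and medians, beside 18.8% higher, 12.9% lower and a median of 0.03 over all named genes. Genes of the later cycle leaned upward: of 15 later cyclins, their kinases and CDC25 phosphatases, 9 were higher and 0 lower, with a median of 0.40. Cdk1, the mitotic kinase, read 0.58 ± 0.18, with 0.60 and 0.17 on its other probes, of which the first was called. Wee1, which restrains CDK1, read 0.49 ± 0.19, and Ccne1, the cyclin that follows D cyclins in G1, read 0.49 ± 0.17, with 0.10 and no call on its other probe. Cdc25b, the brightest member not called, read −0.04 ± 0.03. The calls of Ccne1 (without replicate 3, adjusted p 0.0597) and Wee1 (without replicate 1, 0.050005, or replicate 3, 0.0594) ended with 1 array left out. The list median stayed above that of all tested probes under median centring, by 0.65. So did the medians of the other lists, by 0.28 to 1.01 under median centring over all probes. With replicate 3 left out, 4 of the 15 were called higher. Calls over all 28921 tested probes fell as well in that fit, from 4778 higher and 3633 lower to 1913 and 1151. Dropping replicate 4 gave totals of 2138 and 1265, and dropping replicate 1 gave 2921 and 1951. Dropping replicate 2 raised the totals to 6331 and 5546. The counts with 1 array left out in the lists below stand beside these totals.

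Of 16 proliferation markers, of which Ccna2, Ccnb1 and Cdk1 also stand in the list of later cyclins and 2 of these 3 were called, 11 were higher and 0 lower, with a median of 0.55 and array medians of 0.45 to 0.60. Top2a, the topoisomerase of dividing cells, read 1.01 ± 0.21. Bub1, of the spindle checkpoint, read 0.84 ± 0.27, and Mcm6, of the replicative helicase, read 0.67 ± 0.17. Pcna, the replication clamp, read 0.41 ± 0.34 with an adjusted p of 0.0696. Unadjusted p-values were under 0.05 for 15 of the 16, beside 7057 of all 15673 named genes. Without replicate 3 the number of these markers called higher was 7, beside 1913 of all 28921 tested probes. With every array kept, 4778 of those probes were higher.

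Beside these markers, markers of cell types also differed between the channels. Over all named genes 18.8% were higher and 12.9% lower under loess. Of 14 tested muscle markers, 6 were lower and 1 higher under loess, with array medians of −0.55 to −0.06. Under median centring over all probes 9 were higher and 1 lower, and over tested probes 5 were higher and 3 lower. Calls were also more frequent over the 28921 tested probes. Centring over all probes called 16793 higher and 5939 lower, and centring over tested probes 10477 higher and 10981 lower. The median of the muscle markers was −0.25 under loess and 0.59 under median centring over all probes, the latter 0.055 above the median of tested probes. Of 7 tested fibroblast markers, 5 were higher and 0 lower, with array medians of 0.32 to 0.84. Of 6 tested macrophage and leukocyte markers 2 were lower and 0 higher under loess, and of 5 tested endothelial markers 1 was lower and 0 higher. Under median centring over all probes 4 of the leukocyte and 1 of the endothelial markers were higher, and 1 and 3 were lower. Their part in the values of Myc, the D cyclins and the inhibitors was not tested. In these bulk samples, a change in the number of cells that are cycling or differentiated cannot be told apart from a change in RNA per cell.

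Of 18 pocket proteins, E2F factors and members of the DREAM and MuvB complexes, through which pocket proteins repress cell cycle genes, 7 were higher and 2 lower, with a median of 0.15. E2f5, a partner of the pocket proteins p107 and p130, read 0.61 ± 0.08. Tfdp1, the dimer partner of E2F factors, read 0.53 ± 0.12. E2f2, an activating E2F, was lower at −0.69 ± 0.27 under loess and read 0.35 under median centring over all probes, and its call ended without replicate 3 (adjusted p 0.0556). E2f6, a repressor, was not called at −0.14 ± 0.27. Leaving out replicate 3 reduced the calls to 2 higher and 0 lower, leaving out replicate 4 to 3 higher and 1 lower, and leaving out replicate 1 the lower calls to 1.

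Of 3 tested INK4 and other CDK inhibitors on the array (of 5 listed), 0 were called by limma. All 3 had unadjusted p-values under 0.05, beside 7057 of all 15673 named genes. The methods' t-test called 0 of the 3, beside 3829 of all named genes. The list median was 0.24, and Cdkn2d, which encodes p19, read −0.17 ± 0.06 with an adjusted p of 0.0825. With replicate 1 or 2 left out, 1 of them was called higher.

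Of 14 tested genes that act in the turnover of p27, p21, the D cyclins and Myc, 5 were higher and 3 lower, with a median of 0.11. Gsk3b, a kinase that marks cyclin D1 and Myc for degradation, was lowest at −1.13 ± 0.07 with its brightest probe. Under median centring it read −0.08 over all probes (adjusted p 0.516) and −0.59 over tested probes. Its 2 other probes read −0.18 and −0.32 and were not called. Fbxw7, the ubiquitin ligase subunit that recognises Myc and cyclin E, read −0.76 ± 0.34 under loess and 0.29 under median centring over all probes, and its call ended without replicate 3 (adjusted p 0.0632) or replicate 4 (0.0594). Cul1, the scaffold of that ligase, read 0.66 ± 0.18, and Ddb1, of another ligase, read −0.14 ± 0.17 and was not called. With replicate 3 or with replicate 4 left out, 1 was called higher and 1 lower, and with replicate 1 left out 3 were called higher.

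Of 22 Myc target genes, 6 were higher and 3 lower, with a median of 0.17. Gnl3, a nucleolar protein of proliferating cells, read 0.63 ± 0.14. Eif4e, the cap-binding translation factor, read 0.42 ± 0.15, with −0.22 and no call on its other probe. Polr1b, a subunit of RNA polymerase I, read 0.38 ± 0.08. Without replicate 3 the calls of Polr1b (adjusted p 0.0526) and Eif4e (0.0659) ended, and that of Eif4e also without replicate 4 (0.0609). Ldha, lactate dehydrogenase, read 0.25 ± 0.15 with an adjusted p of 0.0562 and means of −0.27 and 0.24 on its other probes. Leaving out replicate 3 reduced the calls to 1 higher and 0 lower, replicate 4 to 2 higher and 1 lower, and replicate 1 to 3 higher and 0 lower. The whole array lost calls in both directions in each of these fits.

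Of 12 tested Myc partners and antagonists, 0 were called by limma and 0 by the methods' t-test, while 3 had unadjusted p-values under 0.05. Over all 15673 named genes, the methods' t-test called 3829, and 7057 had unadjusted p-values under 0.05. Bin1, which binds Myc and is known for its part in muscle differentiation, read −0.22 ± 0.25. The median of the list was 0.06. With replicate 2 left out, 2 were called higher and 1 lower, and with replicate 1 left out 1 was called higher.

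Of 20 genes of p53 and its targets, the pathway that induces Cdkn1a after DNA damage, 4 were higher and 5 lower. The median was −0.07 under loess and 0.82 under median centring over all probes, 0.28 above the median of tested probes. Fas, a death receptor, read 0.82 ± 0.04, and Ei24 read 0.63 ± 0.17. Mdm4, an inhibitor of p53, read −0.81 ± 0.41 with its brightest probe and 0.22, not called, with another. Its call ended without replicate 1 (adjusted p 0.0527), without replicate 4 (0.0523), in the methods' t-test (0.108) and under median centring over all probes (−0.28, 0.210). Gadd45a, a stress response gene, read 0.14 ± 0.18 and was not called. The methods' t-test called 5 of the 20, beside 3829 of all 15673 named genes. Leaving out replicate 1 reduced the calls to 2 higher and 2 lower, and leaving out replicate 3 or 4 the lower calls to 3.

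**Figure D5:**
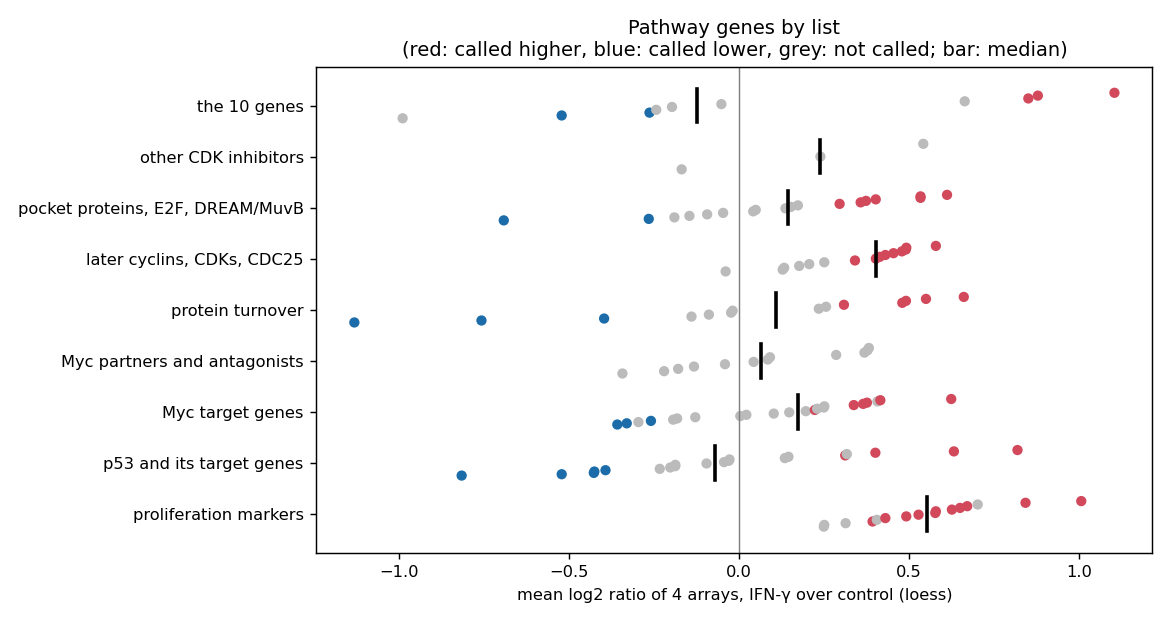
Mean log2 ratio over 4 arrays (x axis, loess) of each gene in the 10 genes and the 8 other lists (y axis), by brightest tested probe; red points were called higher, blue lower, grey not called, and bars are medians. Later cyclins and proliferation markers hold 9 and 11 higher genes with 0 lower, while the 10 genes lie on both sides of 0. Of the 9, Ccne2 entered through the treated channel. E2f2, Fbxw7 and Ccnd2, here below 0, lie above 0 under median centring over all probes.

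The genes whose brightest probe came closest to a member over the 4 arrays were found by Euclidean distance on the log2 ratio, as a description without a test. For Ccnd1 these were Rab28 (distance 0.13), Rftn1 (0.15) and Rnaseh1 (0.16). For Rb1 they were Rpl39 (0.12), Gucy1b2 (0.13) and Wbscr25 (0.13). For Myc they were Mtmr2 (0.20), Dstyk (0.23) and Kpna3 (0.33), which also read highest on replicate 2.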

How the data were processed

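Per the file headers, spot intensities came from Agilent Feature Extraction 10.7.3.1, and the deposited files also hold the log10 ratio of Cy5 to Cy3 from background-subtracted, dye-normalised signals. The authors' deposited value table is on the log2 scale: against the scanner's log10 ratios its slope was 3.32 on each array, so its direction is Cy5 over Cy3. Its median difference from those ratios, turned to log2, was 0 on each array. The median of the tested probes' means was 0.013 with either. Column medians were −0.12 to −0.10 in the authors' table and 0 for the scanner's ratios, and the cause of this difference was not tested. The files hold no mean signal, so median intensities were corrected with normexp (offset 50) and normalised by loess within arrays in limma 3.58.1 under R 4.3.3, with control and outlier spots at weight 0 and spots of 1 probe averaged. Where 1 value per gene was needed, the brightest tested probe stood for it. Means were tested against 0 with lmFit and eBayes, two-sided, with Benjamini-Hochberg adjustment over 28921 probes at 0.05. The methods' t-test is the unpaired test that the design text names, on the channels' log2 values after loess and Aquantile. Related genes were compared by exact sign-flip permutation tests.

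Of 39429 probes, 26055 received 1 symbol, 0 several and 13374 none, through transcript accessions in the RefSeq table. The array files name build mm9 and the RefSeq tables GRCm38.p6, so positions are printed for promoter windows only. Depth does not apply to arrays, and their number, 4, limits the precision. The genes and lists were chosen with earlier results of these data known. Of each of the 8 lists the text names the 3 called genes with the largest mean and the brightest gene not called, and of Ccnd1, Myc and Rb1 the 3 nearest genes. The rule also covered the genes nearest to Cdkn1a and a second check of the treatment, which are not reported here. Marker lists are given by counts. The fit was tested on simulated data. The alternatives were the Feature Extraction ratio, 2 median centrings, no background correction, 2 filters, the authors' table, leaving out each array, the methods' t-test, adjustment over genes and the mean of a gene's probes.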

Additional observations from a re-analysis of the deposited data

Results flagged for a closer look

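Of 55 results checked for 1 array far from the other 3, 4 passed Dixon's limit (95%), and chance passes about 1 in 20. Cdkn1b read 1.57 on replicate 2, with a gap of 0.850 of the range to the next array. Ldha read 0.030 on the same replicate, with a gap of 0.942. Cdkn1a minus Cdkn1c was 0.52 on replicate 1, with a gap of 0.852. Ccnd2 minus Ccnd3 was −0.77 on replicate 1, with a gap of 0.957. Cdkn1a itself, with 0.20 on that array, stayed under the limit.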

How the results depend on the processing

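Median centring over all probes or over tested probes gave 16793 or 10477 probes higher and 5939 or 10981 lower (loess 4778 and 3633), so 73.9% or 48.8% of calls were higher against 56.8%. Of the 14 probes, 12 or 10 were then higher and 0 or 1 lower. Means that turned sign over all probes were Cdkn1a 0.056, Cdkn1c 0.57, Rb1 0.83, Ccnd2 0.50, Ccnd3 0.82, Ccnd3 probe 2 1.02, Cdk4 1.01, Cdkn2d 0.87, E2f2 0.35, E2f6 0.89, Cdc25b 0.99, Fbxw7 0.29, Ddb1 0.94 and Bin1 0.85. Those over tested probes were Cdkn1c 0.063, Rb1 0.32, Ccnd3 0.32, Ccnd3 probe 2 0.51, Cdk4 0.50, Cdkn2d 0.36, E2f6 0.38, Cdc25b 0.48, Ddb1 0.43 and Bin1 0.34. Cdk6 minus Cdk4 was −0.069 under both. The mean of the 3 Cdk4 probes was 0.14. The methods' t-test called 2365 probes lower and 3948 higher. Adjustment over genes called 4 of the 10 genes lower, and the share of all named genes under it is not given. With 1 array left out, probes higher ranged from 1913 to 6331, probes lower from 1151 to 5546, and probes of the 10 genes called lower from 0 to 3. Likewise the Cdk4 mean ranged from −0.097 to 0.015 and that of Ccnd3 probe 2 from −0.18 to 0.15. The cause of these changes was not tested. Ccnd1 kept its call under all 14 alternatives, some of which differ little: the authors' table repeats the Feature Extraction ratio. The slide as a block was not run, since all arrays lay on 1 slide. Each array sets treated against control RNA, so the fit of the ratios already uses this pairing and no further paired analysis was run. The methods' t-test leaves the pairing out. Signal over background limits Cdk6, Ccne2 and the dim Cdkn1a probe.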
